A study of Rattus norvegicus with 24 samples.

Results

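Solute carriers are membrane proteins that move sugars, amino acids, ions, metals, nucleotides and metabolites across the plasma membrane and the membranes of organelles. Many use the sodium gradient, and others exchange one solute for another or simply let it pass. In the heart they bring in fatty acids, lactate, creatine and taurine, export acid and iron, and carry ATP, phosphate and fuel intermediates across the mitochondrial inner membrane.

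The carriers described here were chosen by gene symbol and by signal. They are the genes whose symbol begins with Slc and a family number, apart from Slc2a1, Slc2a4 and Slc8a1, with a mean log2 signal over the 24 arrays at or above 7.70, the 40th percentile of the array's probe sets (208 intensity units). Of 117 such genes on the array, 76 passed and 41 did not, and the 76 stand among 3140 genes that passed in all. The lowest inside were Slc26a2 (7.75), Slc2a5 (7.77) and Slc22a13 (7.88), and the highest outside were Slc15a2 (7.69), Slc7a1 (7.64) and Slc16a7 (7.62), on the log2 scale. The mean signal chose the carriers, so their mean level is not a finding. The set still holds some sugar transporters, namely Slc2a3, Slc2a5 and the sodium-coupled Slc5a1.

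The samples were ventricles of male Wistar rats that weighed 150 g at injection, with 1 animal per Affymetrix RG-U34A array. Diabetic animals had received 65 mg/kg streptozotocin, a toxin for the pancreatic beta cells that make insulin, and control animals citrate buffer. Ventricles were taken 3, 28 or 42 days later, 4 animals in each of 6 groups, days that the labels tie to diabetes without cardiac symptoms, to diastolic symptoms, and to diastolic with systolic symptoms. Blood glucose was 103 to 156 mg/dL in the controls and 500 to 769 mg/dL in the diabetic animals, and body weight was 156 to 181 g in controls and 144 to 157 g in diabetic animals at day 3, 295 to 351 g and 205 to 265 g at day 28, and 413 to 472 g and 112 to 126 g at day 42. The labelled diabetic weights of day 42 thus lay below those of day 3, and they are given as labelled. The ventricle was sampled whole and no cardiac cell type was isolated, so fewer cells of a type and less RNA per cell cannot be told apart in any value that follows.

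The median signal of an array lay between 321.4 and 442.9 intensity units, and arrays of the same group correlated at 0.927 to 0.978. All 8 arrays of day 42 shared 1 scan day, 1 operator and 1 chip lot, and no scan day held arrays of more than 1 time point. Fluidics station largely followed treatment on the other days. At day 3 the diabetic arrays ran on station 2 and the controls, apart from replicate 3, on station 1. At day 28 the controls ran on station 2 and the diabetic arrays, apart from replicate 1, on station 1. With station as a term, probe sets at an adjusted p under 0.05 in limma went from 49 to 23 at day 3 and from 110 to 49 at day 28. At day 42 none of 4 cardiomyocyte markers passed the threshold (an adjusted p under 0.05 in limma), while 4 of 4 fibroblast markers fell in diabetic ventricles, with a summed signal of 35520 to 46790 against 75600 to 84460 intensity units in controls. Of 3 adipocyte markers 2 rose, Fabp4 by 0.77 and Cfd by 1.82, with sums of 11410 to 16570 against 9639 to 10970. Of 3 endothelial markers 1 rose, Kdr by 1.83, with sums of 3906 to 5100 against 2644 to 3211, and among 3 leukocyte markers Cd74 fell by 2.45, with sums of 4663 to 20370 against 15670 to 17880. Their part in the carrier results was not tested. No marker on these lists passed at days 3 or 28. The adipocyte sums were nonetheless apart at day 3, at 14320 to 18680 in diabetic and 8024 to 12160 in control ventricles. Fabp4 gave 0.92 there (adjusted p = 0.053, limma), Cfd 1.38 (adjusted p = 0.203, limma) and Lep -0.09. The part of this difference in the carrier values of day 3 was not tested.

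At day 42, 9 of the 76 carriers differed between diabetic and control ventricles, 7 higher and 2 lower (limma, Benjamini-Hochberg over 5244 probe sets, adjusted p under 0.05). The largest rises were in the taurine transporter Slc6a6, the amino acid carrier subunit Slc3a2, the magnesium carrier Slc41a3, the fatty acid transport protein Slc27a1 and the iron exporter Slc40a1. The monocarboxylate carrier Slc16a6 and the vitamin transporter Slc5a6 fell. The share of carriers past the threshold, 11.8%, lay near that of all probe sets tested, 11.4%, of which 5.8% were higher and 5.63% lower. The 4 diabetic arrays lay wholly above or below the 4 control arrays for 11 carriers, 8 above and 3 below, against 19.8% of all probe sets (9% above and 10.8% below). The median log2 change of the carriers was -0.02 and that of all probe sets -0.03. Without control replicate 1 of day 42, 5 carriers passed.

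**Figure D1:**
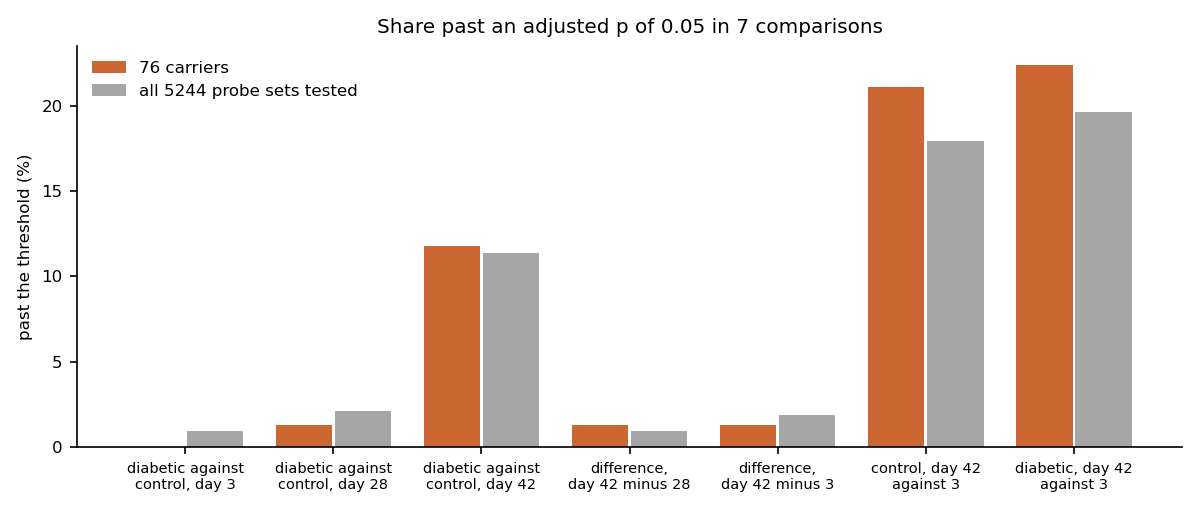
Bars give the percentage of the 76 carriers and of all 5244 probe sets that passed an adjusted p of 0.05 in each of 7 comparisons. The carriers stand at 11.8% against 11.4% at day 42, and at 0 against 0.934% at day 3.

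Among carriers of fuels, Slc27a1, also known as fatty acid transport protein 1, moves long-chain fatty acids into the cell and helps to activate them to acyl-CoA. Its signal at day 42 was 7004, 6932, 5740 and 6687 intensity units in the diabetic arrays and 2876, 3295, 3699 and 3231 in the controls. Every diabetic array lay above every control array. Slc27a1 rose by 1.01 ± 0.18 on the log2 scale (SE, n = 4 per group), 2.01-fold, with adjusted p = 0.00029 in limma, and it kept the call in all 24 other settings tried.

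At day 28 Slc27a1 read 5513, 2924, 4525 and 5760 intensity units in diabetic and 2818, 4176, 2515 and 3010 in control arrays. Diabetic replicate 2 lay within the controls, and control replicate 2 above it. The difference of 0.56 ± 0.18 (SE) did not pass (adjusted p = 0.12, limma), though it passed without control replicate 2 or without diabetic replicate 2, at 0.71 to 0.77. At day 3 the diabetic arrays read 6283, 4640, 5621 and 4355 intensity units and the controls 4039, 3970, 3633 and 3615. The groups did not overlap there, yet the log2 difference of 0.44 ± 0.18 (SE) did not pass (adjusted p = 0.359, limma).

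Slc16a6 encodes a monocarboxylate carrier that in zebrafish lets ketone bodies leave the liver. At day 42 it read 253, 279, 192 and 305 intensity units in diabetic and 560, 346, 458 and 407 in control arrays. The highest diabetic array stayed below the lowest control. It fell by 0.78 ± 0.22 on the log2 scale (SE, n = 4 per group, adjusted p = 0.0207, limma). The call was lost without control replicate 1, control replicate 3 or diabetic replicate 3, at -0.76 to -0.65, when only the arrays of day 42 were fitted, and without the 2 arrays of all 24 that deviated most from their groups. The groups were also apart at day 3, at 271.7 to 324 against 354 to 598 intensity units, but the log2 change of -0.71 ± 0.22 (SE) missed the threshold (adjusted p = 0.163, limma).

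Slc5a6 takes up biotin, pantothenate and lipoate together with sodium. It is counted with the fuels, not with the vitamins, because roles were assigned by family number. Its signal at day 42 was 1704, 1487, 1543 and 1318 intensity units in diabetic and 2069, 1816, 2063 and 2017 in control arrays, with no overlap. It fell by 0.40 ± 0.12 on the log2 scale (SE, adjusted p = 0.0293, limma). A second Slc5a6 probe set, marked by the maker as shared by similar sequences, gave 0.02 (adjusted p = 0.978, limma). The call was lost without control replicates 1, 3 or 4 or diabetic replicates 2 or 4 (-0.39 to -0.34), with fluidics station as a term, with median centring, and with the mean of both probe sets.

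The other 10 carriers counted with the fuels by family number did not pass at day 42. The lactate and ketone body carrier Slc16a1 averaged 9763 ± 1246 intensity units in diabetic ventricles and 8919 ± 921 in controls (SD, n = 4), a log2 difference of 0.13. Slc22a5, the sodium-coupled carnitine transporter, averaged 529 ± 60.4 against 516 ± 163 (SD, n = 4), a difference of 0.09. Slc5a3, which takes up myo-inositol, gave 0.35, and Slc2a3, a glucose transporter typical of neurons, gave 0.16. The lactate exporter Slc16a3 gave 0.03. Slc37a1, a sugar phosphate exchanger, gave 0.70 at day 28, where its groups did not overlap (adjusted p = 0.155, limma), and -0.26 at day 42.

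Among amino acid carriers, Slc3a2 is the heavy chain, CD98, that takes light chains such as the leucine carrier Slc7a5 to the cell surface. At day 42 it read 4754, 6133, 4096 and 4989 intensity units in diabetic and 2449, 1641, 2775 and 1610 in control arrays. The lowest diabetic array stood well above the highest control. Slc3a2 rose by 1.26 ± 0.29 on the log2 scale (SE, n = 4 per group), 2.4-fold, with adjusted p = 0.0041 in limma. A second probe set rose too, by 1.20 (adjusted p = 0.00996, limma), and the maker marks both as shared by similar sequences.

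At days 3 and 28 Slc3a2 did not pass, at 0.29 ± 0.29 and 0.05 ± 0.29 on the log2 scale (SE). Diabetic replicate 3 of day 3 read 5435 intensity units while the other three arrays of that group read 2142 to 2423. The light chain Slc7a5 averaged 824 ± 178 intensity units in diabetic ventricles and 695 ± 70.9 in controls (SD, n = 4) at day 42, 0.22 ± 0.20 higher on the log2 scale (SE), short of the threshold. The glutamate carriers Slc1a1, Slc1a2 and Slc1a3 gave 0.15, -0.29 and 0.21 at day 42, and the glycine carrier Slc6a9 gave -0.06. Of the 8 amino acid carriers, 1 rose and 7 did not pass, with a median of 0.18.

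Among the carriers of taurine, creatine and neurotransmitters, Slc6a6 concentrates taurine, an abundant free amino acid of heart muscle, against its gradient. At day 42 its signal was 726, 836, 1023 and 1277 intensity units in diabetic and 407, 389, 431 and 301.5 in control arrays. Every diabetic value exceeded every control value. Slc6a6 rose by 1.32 ± 0.28 on the log2 scale (SE, n = 4 per group), 2.49-fold, with adjusted p = 0.00218 in limma. Its differences at days 3 and 28 were 0.41 ± 0.28 and 0.67 ± 0.28 (SE), neither past the threshold, and the groups overlapped at both. In the controls the group mean was 619 ± 176 intensity units at day 3, 512 ± 170.2 at day 28 and 382 ± 56.3 at day 42 (SD, n = 4 each). Diabetic means were 812 ± 175, 822 ± 297 and 966 ± 241 on these days (SD, n = 4 each). From day 3 to day 42 neither group passed, at -0.66 in controls (adjusted p = 0.105, limma) and 0.24 in diabetic animals (adjusted p = 0.577, limma).

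The creatine transporter Slc6a8 averaged 3254 ± 396 intensity units in diabetic ventricles and 3114 ± 245 in controls (SD, n = 4) at day 42. Its log2 differences were 0.20, -0.08 and 0.06 at days 3, 28 and 42, none past the threshold. The noradrenaline transporter Slc6a2 gave -0.46, -0.26 and -0.23, none past the threshold. Of the 7 carriers in this group 1 rose at day 42 and 6 did not pass.

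Among carriers of metals and vitamins, Slc41a3 has been described in human cells as a magnesium carrier of mitochondria. At day 42 it read 8709, 6266, 6405 and 7709 intensity units in diabetic and 3599, 3160.1, 2391 and 2994 in control arrays. The groups lay far apart. It rose by 1.26 ± 0.23 on the log2 scale (SE, n = 4 per group), 2.4-fold, with adjusted p = 0.0005 in limma. At days 3 and 28 its differences were -0.13 ± 0.23 each (SE), and the groups overlapped almost fully.

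The diabetic effect on Slc41a3 differed between days. On the log2 scale the effect at day 42 exceeded that of day 28 by 1.39 ± 0.33 (SE, adjusted p = 0.0372, limma) and that of day 3 by 1.39 ± 0.33 (SE, adjusted p = 0.0266, limma). It was the 1 carrier of 76 to pass in either comparison, against 0.973% of all probe sets for days 42 and 28 (0.172% higher and 0.801% lower) and 1.87% for days 42 and 3 (0.572% higher and 1.3% lower). The first difference was lost without any 1 of 10 of the 16 arrays involved (1.25 to 1.43): control replicates 1, 2 and 4 and diabetic replicates 2 and 3 of day 28, and control replicates 2, 3 and 4 and diabetic replicates 1 and 4 of day 42. The second was lost without any 1 of 8 (1.15 to 1.39): control replicates 1, 2 and 3 and diabetic replicate 4 of day 3, and control replicates 3 and 4 and diabetic replicates 1 and 4 of day 42. For Slc3a2, Slc27a1, Slc6a6 and Slc40a1 neither difference between days passed, with values of 1.21, 0.45, 0.65 and -0.11 for day 42 minus day 28 and of 0.97, 0.57, 0.90 and 0.50 for day 42 minus day 3.

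Slc40a1, ferroportin, is the only known exporter of iron from mammalian cells. At day 42 it read 575, 496, 475 and 694 intensity units in diabetic and 349.8, 286, 348 and 188 in control arrays, without overlap. It rose by 0.96 ± 0.23 on the log2 scale (SE, n = 4 per group), 1.95-fold, with adjusted p = 0.00571 in limma. A second Slc40a1 probe set gave 0.54 and did not pass (adjusted p = 0.268, limma). The iron importer Slc11a2 gave -0.20 at day 42, and its second probe set fell by 0.71 (adjusted p = 0.0179, limma). The zinc carriers Slc30a2 and Slc30a4 gave -0.47 and 0.16, and the folate carrier Slc19a1 gave -0.16.

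Of the 12 carriers of the mitochondrial inner membrane, which exchange nucleotides, phosphate and fuel intermediates with the cytosol, 11 did not pass at day 42. The ADP/ATP carrier Slc25a4, the main form of heart and skeletal muscle, averaged 63921 ± 6272 intensity units in diabetic ventricles and 66436 ± 10076 in controls (SD, n = 4) at day 42, a log2 difference of -0.05 ± 0.16 (SE). Its relative Slc25a5 gave -0.11 ± 0.12, the phosphate carrier Slc25a3 gave -0.18 ± 0.15, and the oxoglutarate-malate carrier Slc25a11 gave -0.22 ± 0.13 (SE). Slc25a20, which exchanges carnitine for acylcarnitine, gave 0.24, 0.43 and -0.05 at days 3, 28 and 42. The citrate carrier Slc25a1 gave 0.49 ± 0.20 at day 42 (SE, adjusted p = 0.139, limma).

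Slc25a26, which brings S-adenosylmethionine into mitochondria, was the 1 carrier of 12 in this group past the threshold at day 42. It read 4526, 4939, 7036 and 5730 intensity units in diabetic and 3801, 3243, 4890 and 4520 in control arrays. The groups overlapped. It rose by 0.43 ± 0.14 (SE, adjusted p = 0.0484, limma), and the log2 difference was 0.11 within fluidics station 1 (2 diabetic and 3 control arrays) and 0.97 within station 2 (2 and 1). It passed in only 9 of 24 other settings. The call was lost without control replicates 1, 2 or 4 or diabetic replicates 2, 3 or 4 (0.31 to 0.48). It was lost with no filter, median centring or plain eBayes, when only the arrays of day 42 were fitted, and without the 2 most deviating arrays. Fluidics station, scan day or chip lot as a term also ended the call. All arrays of day 42 shared 1 scan day and 1 chip lot, so these 2 terms could change only the p-value, not the log2 difference.

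Among the members, no carrier of acid-base balance, chloride, sodium-calcium exchange or phosphate passed at day 42. Slc8a2 was the only sodium-calcium exchanger among them, since Slc8a1 was left out, and no Slc9 sodium-proton exchanger was a member. For Slc12a3 the groups did not overlap, at 618 to 879 intensity units in diabetic and 334 to 519 in control arrays. Its log2 difference of 0.81 did not pass (adjusted p = 0.295, limma). The sodium bicarbonate cotransporter Slc4a4 read 186, 159, 326 and 192.5 intensity units in diabetic and 46.9, 276.5, 112 and 68.5 in control arrays. Control replicate 2 lay inside the diabetic range and the other controls below it. The log2 difference of 1.06 ± 0.37 (SE) did not pass (adjusted p = 0.0654, limma). The chloride-bicarbonate exchangers Slc4a3, typical of heart muscle, and Slc4a2 gave 0.15 and 0.47, and the sodium-coupled chloride carrier Slc12a2 gave -0.02. The phosphate carrier Slc20a2 gave 0.19. For Slc34a1 the groups did not overlap, at 785.5 to 881 intensity units in diabetic and 391 to 739 in control arrays. Its log2 difference of 0.58 did not pass (adjusted p = 0.44, limma), and its further probe sets gave -0.09 and -0.07.

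Among carriers of organic ions and nucleosides, Slc22a3 takes up monoamines such as noradrenaline outside neurons. Its signal at day 42 was 652, 920, 969 and 748 intensity units in diabetic and 476, 498, 402 and 505 in control arrays. The groups did not overlap at day 42, nor at day 28, where diabetic arrays read 806 to 898 and controls 513 to 648. Slc22a3 rose by 0.79 ± 0.25 at day 42 (SE, adjusted p = 0.0423, limma), while the difference of 0.61 ± 0.25 at day 28 did not pass (adjusted p = 0.301). The day 42 call was lost without any 1 of 7 of the 8 arrays, all but diabetic replicate 1 (0.71 to 0.83). It was also lost with no filter, with median centring, with fluidics station or chip lot as a term, and without the 2 most deviating arrays. All arrays of day 42 shared 1 chip lot, so that term could change only the p-value, not the log2 difference. The call was kept in 11 of 24 other settings. The Slc22a3 probe set carries the maker's mark for a group of related sequences. The adenosine transporter Slc29a1 averaged 1759 ± 145 intensity units in diabetic ventricles and 1844 ± 71.8 in controls (SD, n = 4), a difference of -0.07 ± 0.11 (SE).

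**Figure D2:**
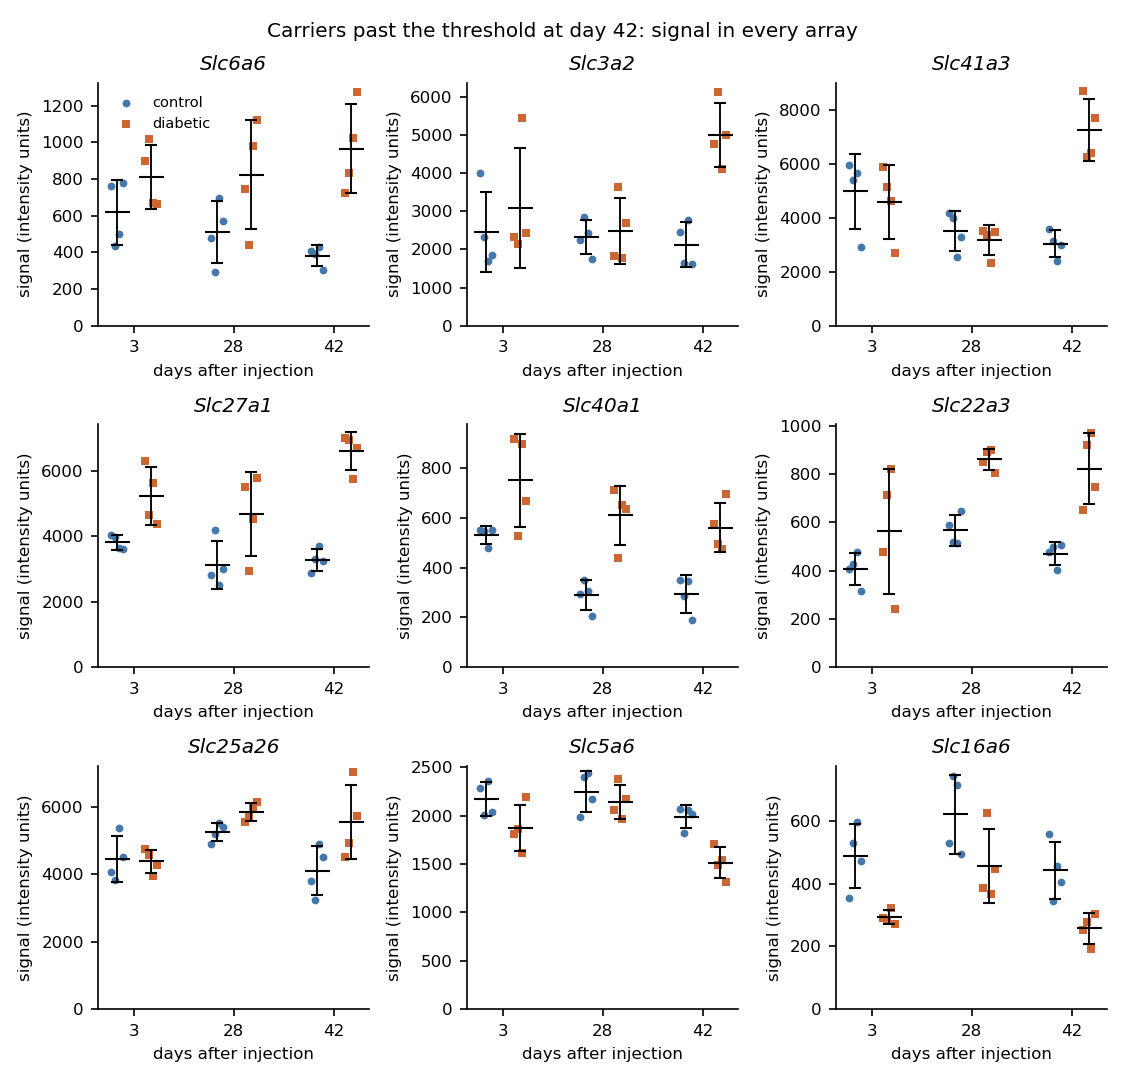
Each panel shows 1 carrier past the threshold at day 42, with the signal of each array (points, intensity units), the mean and the SD of 4 arrays (bars) at 3, 28 and 42 days after injection. For Slc41a3 the diabetic arrays of day 42 read 6266 to 8709 intensity units and the controls 2391 to 3599, while for Slc25a26 the groups overlap.

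Of the 9 calls at day 42, those of Slc27a1, Slc41a3, Slc3a2, Slc6a6 and Slc40a1 held in all other settings in which each was tested. Within fluidics station 1 the log2 differences of these 5 were 1.10, 1.32, 1.28, 1.05 and 0.91, and within station 2, which held 1 control array, 0.91, 1.15, 1.46, 1.56 and 1.01. These 5 were all higher in diabetic ventricles at day 42, and Slc40a1 had also passed at day 28. The 250 bases before the annotated start of each gene are printed here, 5′ to 3′ on the gene's strand, from RefSeq on build GRCr8. Slc27a1 lies at chr16:18312717-18312966 on the plus strand and Slc6a6 at chr4:125752252-125752501 on the plus strand. Slc3a2 lies at chr1:215048065-215048314 on the minus strand, Slc41a3 at chr4:124684717-124684966 on the plus strand and Slc40a1 at chr9:55543461-55543710 on the minus strand. Capitals mark matches, on either strand, to 6 motifs: AGGTCA (site of nuclear receptors), TGGAAA (core of the tonicity element), TGANNNNGC (antioxidant response), TGATGNAA (amino acid response), GGGCGG (GC box) and CCAAT.
Slc27a1: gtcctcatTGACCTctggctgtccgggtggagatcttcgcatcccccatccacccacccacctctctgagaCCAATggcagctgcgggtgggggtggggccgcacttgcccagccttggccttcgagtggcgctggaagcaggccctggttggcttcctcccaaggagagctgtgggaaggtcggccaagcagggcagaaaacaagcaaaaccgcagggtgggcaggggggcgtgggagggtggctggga
Slc6a6: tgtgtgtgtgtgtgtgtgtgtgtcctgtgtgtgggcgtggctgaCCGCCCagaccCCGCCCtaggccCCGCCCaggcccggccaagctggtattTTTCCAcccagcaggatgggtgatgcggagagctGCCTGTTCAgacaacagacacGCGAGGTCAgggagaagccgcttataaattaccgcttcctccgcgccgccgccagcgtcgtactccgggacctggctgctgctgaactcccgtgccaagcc
Slc3a2: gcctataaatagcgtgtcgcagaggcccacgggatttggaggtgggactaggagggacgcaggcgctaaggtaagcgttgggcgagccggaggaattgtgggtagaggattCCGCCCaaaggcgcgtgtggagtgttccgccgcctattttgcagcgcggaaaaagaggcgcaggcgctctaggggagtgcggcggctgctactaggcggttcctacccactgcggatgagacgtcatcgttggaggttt
Slc41a3: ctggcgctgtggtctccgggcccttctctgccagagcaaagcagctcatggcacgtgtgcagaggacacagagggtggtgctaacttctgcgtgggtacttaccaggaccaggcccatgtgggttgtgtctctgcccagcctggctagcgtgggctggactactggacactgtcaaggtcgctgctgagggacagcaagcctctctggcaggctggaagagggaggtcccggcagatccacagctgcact
Slc40a1: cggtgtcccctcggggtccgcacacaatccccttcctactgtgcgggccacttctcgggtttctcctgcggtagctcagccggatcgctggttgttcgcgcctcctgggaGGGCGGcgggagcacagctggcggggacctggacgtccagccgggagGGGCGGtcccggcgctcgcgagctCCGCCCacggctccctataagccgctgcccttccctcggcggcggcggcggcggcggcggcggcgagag

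The window of Slc27a1 held 1 AGGTCA match, 242 bases before the start, and 1 CCAAT match. That of Slc6a6 held 3 GC boxes, 1 TGGAAA match 156 bases before the start, 2 TGANNNNGC matches and 1 AGGTCA match 98 bases before the start, which overlaps the second of the 2 TGANNNNGC matches. Slc3a2 held 1 GC box and Slc40a1 held 3, and Slc41a3 held none of the 6 motifs. Of 27457 RefSeq promoter windows of this length, 13.7% held AGGTCA, 19.5% TGGAAA, 34.6% TGANNNNGC, 3.27% TGATGNAA, 32.4% GGGCGG and 34.3% CCAAT. Of the 65 carriers with a window, 7.69%, 12.3%, 32.3%, 1.54%, 52.3% and 33.8% did. These matches describe letters in a window and show no binding.

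At day 28 only 1 of the 76 carriers passed, Slc40a1, or 1.32% against 2.1% of all probe sets (1.3% higher and 0.801% lower). It read 711.5, 438, 653 and 636.5 intensity units in diabetic and 295, 351, 307 and 206 in control arrays, with no overlap. Slc40a1 rose by 1.08 ± 0.23 on the log2 scale (SE, n = 4 per group), 2.11-fold (adjusted p = 0.00928, limma). The call was lost when only the arrays of day 28 were fitted (adjusted p = 0.0872, limma), and a second probe set gave 0.98 and did not pass (adjusted p = 0.0799, limma). Within scan day 2 the log2 difference was 0.99 (3 diabetic and 4 control arrays), and within fluidics station 2, with 1 diabetic array, it was 1.32. Within chip lot 1, with 1 array a group, it was 0.57, and within chip lot 2 it was 1.20 (2 diabetic and 3 control arrays).

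Groups did not overlap for 6 carriers at day 28, 4 above and 2 below, against 6.52% of all probe sets (2.75% above and 3.78% below). Besides Slc40a1, these were Slc25a26, Slc37a1 and Slc22a3 above and Slc14a2 and Slc1a1 below. The glutamate and cysteine carrier Slc1a1 averaged 229 ± 44.3 intensity units in diabetic ventricles and 361 ± 16.4 in controls (SD, n = 4), -0.68 on the log2 scale, short of the threshold (adjusted p = 0.222, limma). The median log2 change of the carriers was -0.11 and that of all probe sets -0.06.

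At day 3 no carrier passed with limma, against 0.934% of all probe sets (0.629% higher and 0.305% lower). An unadjusted p under 0.05 was reached by 5 carriers, 6.58%, and by 535 probe sets, 10.2%. The smallest adjusted p, 0.149, was that of Slc11a2, which brings in iron and manganese, at 1064 ± 101 intensity units (SD, n = 4) in diabetic and 1555 ± 381 in control ventricles. Its log2 difference was -0.52 ± 0.16 (SE). Groups did not overlap for 6 carriers, 2 above and 4 below, against 7.19% of all probe sets (3.05% above and 4.14% below). These were Slc27a1 and Slc37a4, which moves glucose 6-phosphate into the endoplasmic reticulum, above, and Slc11a2, Slc16a6, Slc25a23 and Slc35b1 below. The medians were -0.05 for carriers and -0.04 for all probe sets.

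**Figure D3:**
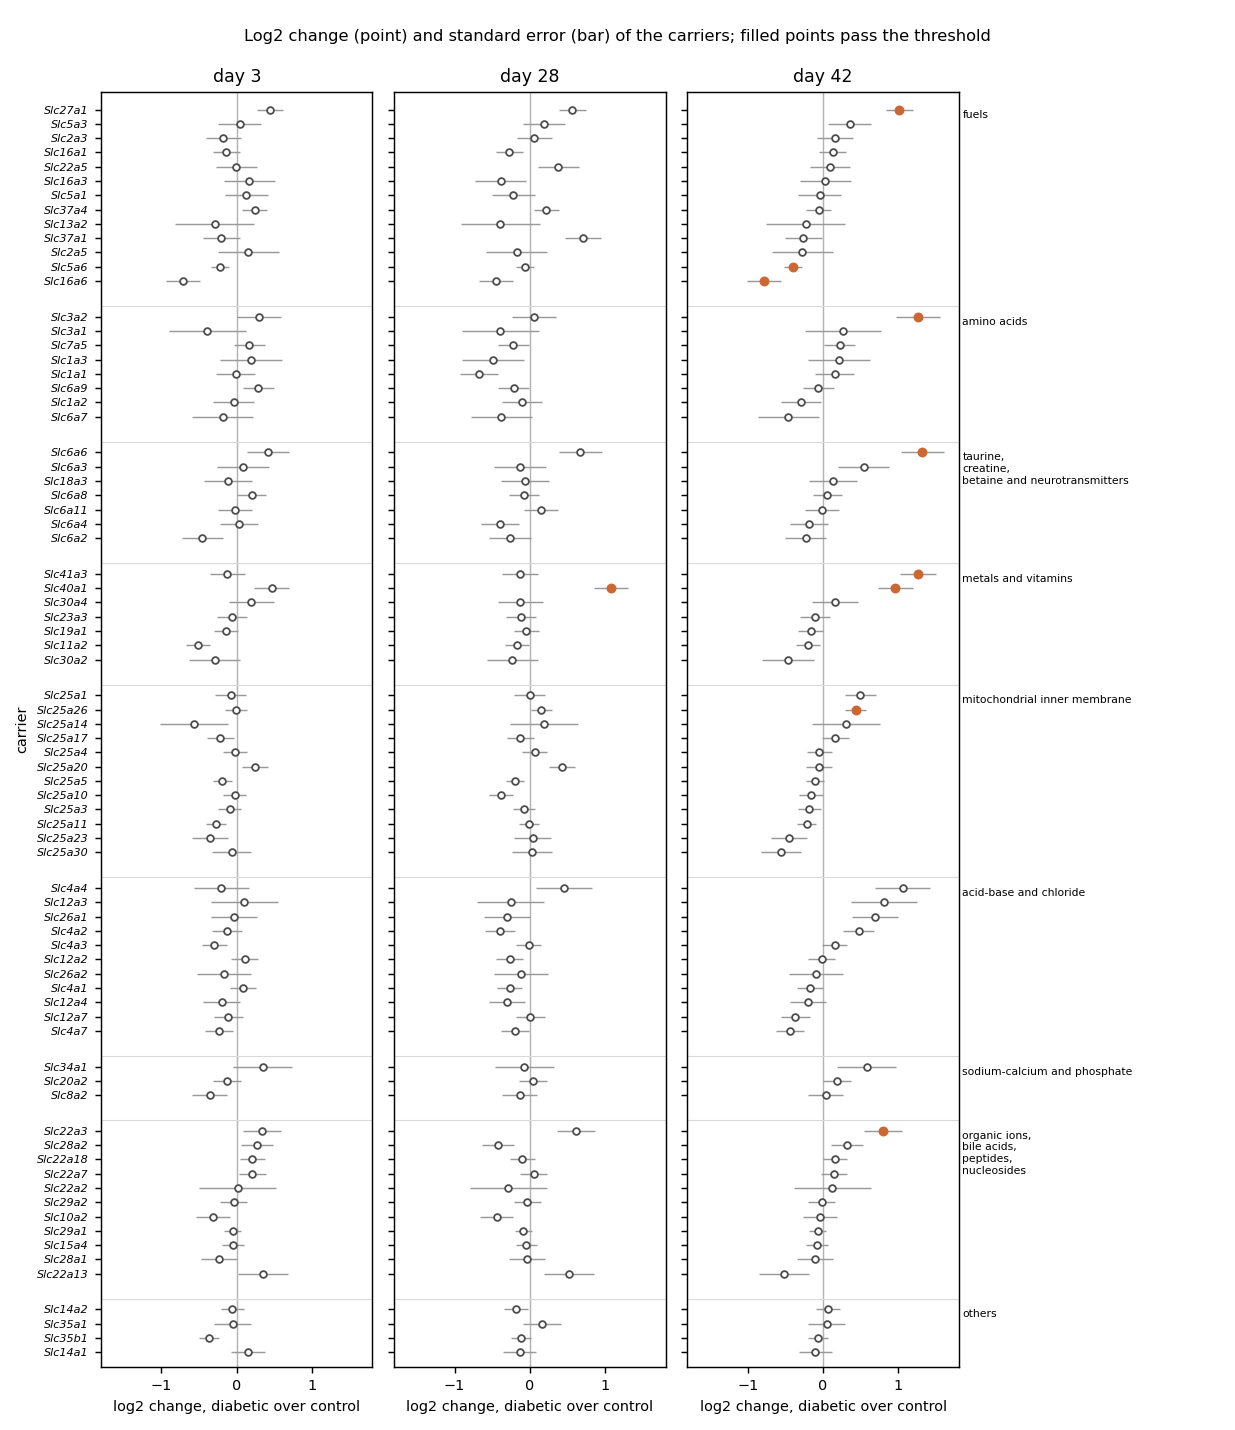
Each row is 1 of the 76 carriers, ordered by role and by the day 42 value. Points give the log2 change of diabetic over control at each day and bars its SE; filled points passed an adjusted p of 0.05, which 0 did at day 3, 1 at day 28 and 9 at day 42.

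Genes that work with these carriers were followed from a list of 32, of which 25 passed the signal filter. At day 42, 1 rose and 3 fell. Cpt1a, which attaches fatty acids to carnitine, rose by 1.22 ± 0.14 (SE, adjusted p = 1.4e-06, limma), after rises of 0.59 at day 3 and 0.74 at day 28. The ketone body enzyme Bdh1 fell by 2.27 ± 0.35 (SE, adjusted p = 6.06e-05, limma), and the creatine kinases Ckb and Ckmt2 fell by 1.54 and 0.41 on the log2 scale. At day 28, 2 rose, Cpt1a and Cpt1b (0.36), and 2 fell, Bdh1 (-1.88) and Ckb (-1.47), and at day 3 only Cpt1a rose. Bsg, the partner that takes Slc16a1 to the cell surface, gave -0.05 at day 42, and Csad, an enzyme of taurine synthesis, gave 0.32, neither past the threshold. Cdo1, the other gene listed for taurine, gave -0.28 at day 3 and -0.66 at day 28. At day 42 Cdo1 gave 1.29 ± 0.44 (SE), short of the threshold (adjusted p = 0.0569, limma).

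Within each group, days 42 and 3 were also compared. In controls, which grew over this time, 16 of 76 passed, 10 higher and 6 lower at day 42, or 21.1% against 17.9% of all probe sets (7% higher and 10.9% lower). In diabetic animals 17 passed, 13 higher and 4 lower, or 22.4% against 19.6% (8.45% higher and 11.1% lower). The median log2 change of carriers was 0.14 in controls and 0.28 in diabetic animals, with 0.01 and 0.02 for all probe sets. Scan day, operator, chip lot and time cannot be told apart here. The hexokinase 3′ to 5′ ratio, a measure of RNA quality, was 2.6 to 5.07 at day 42 against 1.61 to 2.77 at day 3. Over the same days 2 of 3 endothelial markers fell in each course, with summed control signals of 4423 to 6996 (day 3) and 2644 to 3211 (day 42), and diabetic ones of 5734 to 7505 and 3906 to 5100. Of 4 fibroblast markers 1 fell in controls and 3 in diabetic animals, and Lep, an adipocyte marker, rose in both by 0.57 and 0.56. Among other markers Hbb of red cells, Cd74 and Myh1 of skeletal muscle fell in diabetic animals, by 0.97, 1.74 and 1.60. The part of RNA quality and of these cell types in the course was not tested. The diabetic count was 30 without diabetic replicate 1 of day 3, the array farthest from its group mean, and 7 without diabetic replicate 4 of day 3, and the control count was 10 without control replicate 2 of day 42.

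The phosphate carrier Slc20a2 fell most clearly. It read 2102, 2808, 2406 and 1796 intensity units in the controls of day 3 and 635, 824, 933 and 693 in those of day 42. Its diabetic arrays read 2836, 2337, 1605 and 1647 at day 3 and 956.5, 688.5, 1070.1 and 809 at day 42. Both groups were lower at day 42 without overlap, by 1.56 ± 0.18 (2.95-fold, adjusted p = 5.34e-06, limma) and 1.24 ± 0.18 (adjusted p = 6.39e-05) on the log2 scale (SE).

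Slc12a2, which brings sodium, potassium and chloride into the cell, fell by 1.01 ± 0.18 in controls (adjusted p = 0.000391, limma) and 1.13 ± 0.18 in diabetic animals (adjusted p = 0.000132). Its control means were 1195 ± 125 and 602 ± 126 intensity units at days 3 and 42, and its diabetic means 1289 ± 154 and 599 ± 155 (SD, n = 4). A second Slc12a2 probe set fell by 1.57 in controls (adjusted p = 0.000771, limma) and gave -0.44 in diabetic animals (adjusted p = 0.309). Slc4a4 fell by 2.30 ± 0.37 in controls, 4.94-fold, from 387 to 582 intensity units down to 46.9 to 276.5 (adjusted p = 0.000125, limma). With the 25th percentile of signal added as a pseudocount this fall was 1.53, still past the threshold. In diabetic animals Slc4a4 fell by 1.04 ± 0.37 (adjusted p = 0.0481), and the 1.26 between these falls did not pass (adjusted p = 0.366). The diabetic fall of Slc4a4 was lost without any 1 of 7 of the 8 arrays, all but diabetic replicate 3 of day 42 (-1.11 to -0.91), with no filter, with replicate number as a block, and with fluidics station as a term (-0.68).

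Of the 22 carriers past the threshold in either course, 11 passed in both, 68.8% of the control list and 64.7% of the diabetic list. The rise in both covered 7 carriers, among them the nucleoside transporter Slc29a2 (0.72 in controls and 0.74 in diabetic animals), Slc23a3, a relative of the vitamin C transporters (0.84 and 0.80), and the dicarboxylate carrier Slc25a10 of mitochondria (0.67 and 0.54). The organic anion carrier Slc22a7 rose by 0.71 and 0.65, the glutamate carrier Slc1a2 by 1.04 and 0.79, the GABA carrier Slc6a11 by 0.76 and 0.77, and the urea transporter Slc14a2 by 0.51 and 0.63. Control means of day 3 were 310 intensity units for Slc1a2, 341 for Slc23a3 and 435 for Slc6a11, near the array medians of 321.4 to 442.9. The others of these 7 averaged 676 to 1545. Detection calls were not used, so whether the low ones were present was not judged. The fall in both covered Slc20a2, Slc12a2 and Slc4a4. Slc41a3 was the 1 carrier with opposite directions, falling by 0.68 ± 0.23 in controls (adjusted p = 0.0467, limma) and rising by 0.71 ± 0.23 in diabetic animals (adjusted p = 0.0361).

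Several of these calls were not stable. The control fall of Slc41a3 passed in 11 of 22 other settings, with values of -0.92 to -0.57. It was lost with no filter, quantile normalization, plain eBayes or fluidics station as a term, and without control replicates 1, 2 or 3 of day 3 or 2, 3 or 4 of day 42. Its diabetic rise passed in 16 of 22, at 0.47 to 0.91, and was lost when only the groups compared were fitted and without diabetic replicates 3 or 4 of day 3 or 1 or 4 of day 42. The diabetic rise of Slc1a2 passed in 10 of 21, at 0.58 to 1.08 and adjusted p up to 0.156 (limma). It was lost with the pseudocount, with no filter, with only the groups compared, with replicate number as a block, and without diabetic replicates 2, 3 or 4 of day 3 or of day 42. The rises of Slc6a11 (16 of 22 in diabetic animals, 19 of 22 in controls) and of Slc14a2 in controls (17 of 22) were also lost in some settings.

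**Figure D4:**
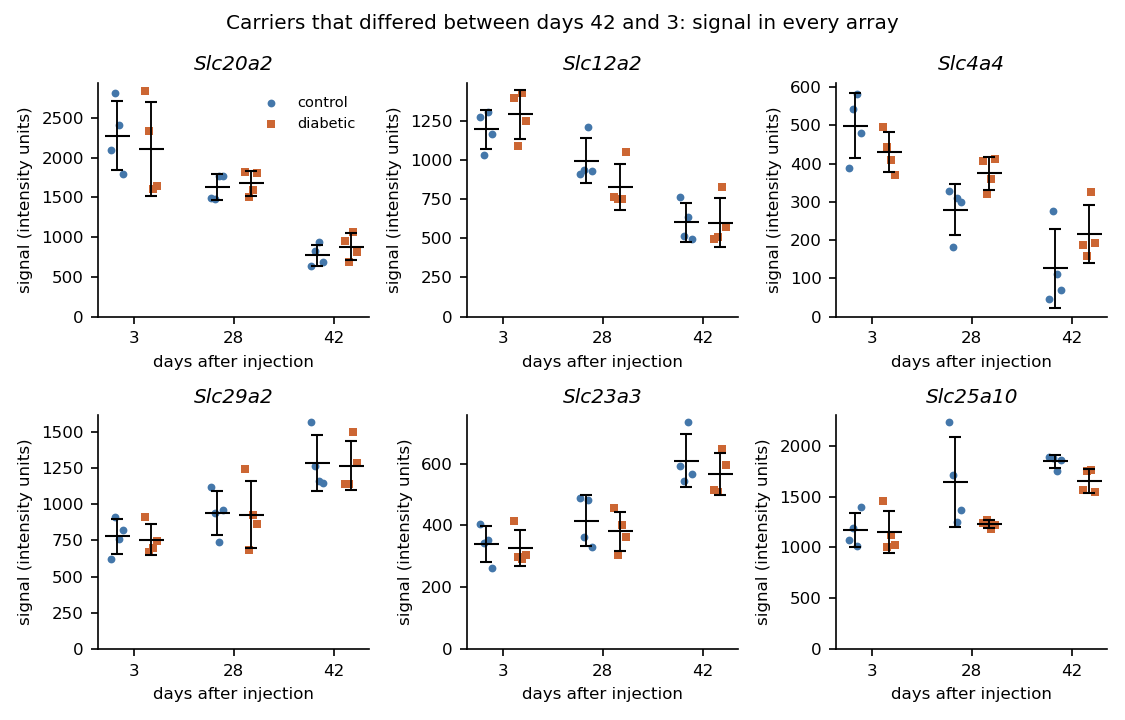
Signal in every array (points, intensity units), with the mean and SD of 4 arrays (bars), for 6 carriers that differed between days 42 and 3 in both groups. Slc20a2, Slc12a2 and Slc4a4 were lower at day 42, and Slc29a2, Slc23a3 and Slc25a10 were higher.

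The remaining calls were made in 1 course for the probe set that represents the carrier. In controls these were Slc40a1 (-0.90), Slc4a2 (-0.63), the urea transporter Slc14a1 (0.67), Slc4a1, the chloride-bicarbonate exchanger of red cells (0.54), and Slc22a13 (1.03). In diabetic animals they were Slc25a20 (-0.58), Slc25a1 (0.71), the sodium-calcium exchanger Slc8a2 (0.75), Slc7a5 (0.64), Slc34a1, the phosphate carrier known from kidney (1.30), and Slc25a14, an uncoupling protein relative (1.35). The difference between the courses passed for none of these 11. The second Slc40a1 probe set gave 0.09 in controls (adjusted p = 0.859, limma) and the second of Slc4a1 gave 0.21 (adjusted p = 0.688), and both control calls were lost with the mean of all probe sets, at -0.41 for Slc40a1 and 0.38 for Slc4a1. The second Slc4a2 probe set fell in both courses, at -1.41 in controls (adjusted p = 0.0158, limma) and -1.499 in diabetic animals (adjusted p = 0.00995). For Slc34a1 one further probe set rose in diabetic animals by 1.03 (adjusted p = 0.0187, limma) and another gave 0.17 (adjusted p = 0.754). Slc25a14 read 71.6 intensity units in diabetic replicate 2 of day 3, and its call was lost without that array (0.78) or without any 1 of the 4 diabetic arrays of day 42 (1.22 to 1.45). It was also lost with no filter, with only the groups compared, with fluidics station as a term and with the mean of both probe sets, the second of which gave 0.15 (adjusted p = 0.859, limma). Leaving out single arrays ended the control calls of Slc14a1 for 6 of 8 arrays, Slc4a2 for 6, Slc22a13 for 5 and Slc4a1 for 3, and the diabetic calls of Slc7a5 for 6, Slc8a2 for 3, and Slc25a20 and Slc25a1 for 2 each. Slc34a1 was lost without diabetic replicate 4 of day 3 (0.83). The calls kept whichever array was left out were those of Slc20a2, Slc12a2, Slc4a4, Slc25a10, Slc29a2, Slc22a7, Slc23a3, Slc40a1 and Slc1a2 in controls, and of Slc20a2, Slc12a2, Slc29a2, Slc23a3 and Slc14a2 in diabetic animals.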

How the data were processed

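Per the submitters' processing notes, the authors computed a MAS5 signal for each probe set, and the deposited table gives it as a linear intensity for 8799 probe sets on 24 arrays. Its version is unknown here. Run-setting files were read for scan day, station, chip lot and operator. Of 8740 probe sets that were not array controls, 7006 had 1 symbol, 308 several and 1426 none. Detection calls were not used here.

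Values under the pooled 10th percentile (30.5) were set to it before log2, and probe sets whose mean reached the 40th percentile, 5244 in number, were tested. None of the 76 carriers was at the floor on any array (0 arrays). All 24 arrays entered 1 group-means model in limma 3.58.1 (R 4.3.3, trend and robust eBayes, 18 residual degrees of freedom, median prior 5.97). Tests were two-sided, with Benjamini-Hochberg adjustment over the 5244 in each of 7 comparisons. The number of arrays limits precision: the median SE of a log2 change within a day was 0.214. Each carrier is represented by its probe set of highest mean. Of the 76, the identifiers mark 16 as shared by similar sequences and 8 as belonging to a sequence group, so their values may not be specific.

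The carriers, the lists and the tests were chosen with earlier results of these data known. Named carriers are those past the threshold in any comparison and well-known cardiac carriers. Of the latter, Slc7a1 and Slc30a1 lay below the filter, and Slc38a2, Slc20a1 and Slc31a1 were not analysed here. Each array is 1 animal. Deviations from the group means correlated over 0.1 in 2 of 12 pairs of same-numbered diabetic and control arrays. These were replicate 3 of day 28 (0.397) and replicate 4 of day 3 (0.266). The main model assumed no pairing by number, and whether these 2 pairs shared handling was not tested. Alternatives covered floor, filter, normalization, variance model, batch terms, probe set choice, threshold and each array left out. The steps were tested on simulated data. Python 3.11.15, pandas 2.3.3, numpy 2.4.6 and matplotlib 3.10.9 made the tables and figures.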

Additional observations from a re-analysis of the deposited data

Results flagged for a closer look

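The diabetic effect on Slc41a3 differed between days by a test of the difference itself, at 1.39 on the log2 scale for day 42 minus day 28 (adjusted p = 0.0372, limma) and 1.39 for day 42 minus day 3 (adjusted p = 0.0266, limma). The first of these differences passed in only 16 of 32 other settings and the second in 22 of 32. All 4 diabetic arrays were above all 4 controls at day 42, and the groups overlapped at days 3 and 28.

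In 39 carriers, the 29 past the threshold in any comparison and 10 other well-known cardiac carriers, each group of 4 arrays was searched for an array far from the other three by Dixon's ratio at its 95% critical value for 4 samples. Of 234 groups 16 held one, and chance gives about 1 in 20. In diabetic replicate 1 of day 3, Slc14a2 read 2378 intensity units (the others 1205 to 1317), Slc7a5 read 837 (417.5 to 475), Slc6a11 read 804 (319 to 354) and Slc23a3 read 413 (292 to 303). In control replicate 3 of day 28, Slc12a2 read 1211 (908 to 933) and Slc1a2 read 928 (426 to 429), and in diabetic replicate 4 of day 28 Slc12a2 read 1049 (749 to 763). Slc3a2 read 5435 in diabetic replicate 3 of day 3 (2142 to 2423), and Slc41a3 read 2343 in diabetic replicate 3 of day 28 (3356 to 3533). In diabetic replicate 3 of day 42 Slc1a3 read 462 (186 to 225). In controls of day 3, Slc25a5 read 19432 in replicate 2 (17775 to 18001), Slc29a1 read 1627 in replicate 4 (1901 to 1920), Slc34a1 read 97.4 in replicate 4 (355 to 373), Slc40a1 read 479 in replicate 3 (545 to 550.4) and Slc25a14 read 220.3 in replicate 3 (391 to 424). Slc25a14 read 71.6 in diabetic replicate 2 of day 3 (331 to 366).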

How the results depend on the processing

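No called carrier changed direction. The 45 calls of single carriers were kept in 825 of 1017 values under another setting. Well-known cardiac carriers that had not passed at days 3, 28 or 42 stayed so in 1288 of 1290 values. Other values short of the threshold were not followed one by one, and some did pass under other settings. In the diabetic course without diabetic replicate 1 of day 3, only 16 of the 30 carriers that passed were among the original calls. With the arrays left out 1 at a time, the number of carriers past the threshold was 0 to 0 at day 3, 1 to 2 at day 28, 5 to 9 at day 42, 0 to 1 for day 42 minus day 28, 0 to 2 for day 42 minus day 3, 10 to 15 in the control course and 7 to 30 in the diabetic course. At an adjusted p under 0.01 it was 5 at day 42, 0 for both differences between days, 8 in the control course and 5 in the diabetic course. The difference between days 42 and 28 gave 0 with no filter, median centring, plain eBayes, scan day or fluidics station as a term, and that between days 42 and 3 gave 0 with chip lot as a term. Day 28 gave 0 with a 60th percentile filter, where Slc40a1 was not tested, 0 when only the groups compared were fitted, and 2 without the 2 arrays that deviate most, a setting added after the data were seen. The diabetic course gave 11 when only the groups compared were fitted. With replicate number as a block the counts were 0, 1 and 9 at days 3, 28 and 42, 1 and 1 for the differences, and 17 and 15 for the courses, against 16 and 17 without it. Chip lot and scan day terms could not be fitted for the courses. The cause of these changes was not tested, apart from the stricter threshold and filter. With 4 arrays a group, a median SE of 0.214 limits what can pass.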
